A study of Mus musculus with 4 samples.

Results

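The homeobox and paired-box transcription factors outside the Hox clusters were examined in basal cells of embryonic mouse skin with and without Ezh2. Of 54 listed genes, 53 had at least 1 probe set annotated to that gene alone, and these members were read by 98 of the 45037 non-control probe sets of the array. Pax2 had none. All 98 probe sets were used, dim ones included. A total of 27 members had 1 probe set, and the others had up to 6.

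Basal cells were purified by flow cytometry from skin at embryonic day 16 (E16) in mice of mixed C57 and CD1 strains. Wild-type cells (WT) were compared with cells carrying a conditional knockout of Ezh2 (Ezh2cKO), with 2 arrays per genotype numbered replicate 1 and replicate 2. The labels name neither the Cre driver nor the deleted exons, and do not say whether a sample pooled embryos or whether replicates came from separate animals. A p-value thus reflects no more than the spread among these arrays. In Ezh2cKO, Xist, a marker of embryo sex, had 86.9 in replicate 1 and 11333 in replicate 2. Those arrays were thus not repeats of 1 sample. In WT, Xist had 8669 and 10527. The Y-linked Eif2s3y had 222.3 and 534.7 there, Kdm5d 118.3 and 286.6, and Uty 133.7 and 286.4. Whether the WT arrays were repeats of 1 sample was not tested, so part of their spread may be technical. The series asks how gene expression in epidermal stem cells changes when Polycomb silencing is lost.

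Homeobox genes encode transcription factors that bind DNA through a homeodomain, and Pax proteins bind through a paired domain, alone or with a homeodomain. They assign position and cell type in the embryo, each in its own tissues. Ezh2 provides the methyltransferase activity of the Polycomb complex that marks histone H3, and homeobox genes are a classic class of its targets in embryonic stem cells, where many are kept silent. A few members belong to skin itself: Dlx3 acts in epidermal differentiation and hair, and Irx genes are expressed in skin epithelium, whereas Prrx1, Msx1, Shox2 and Meis genes are better known from mesenchyme, and Pax3 from the neural crest and its melanoblasts.

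A probe set was called on where its signal exceeded the 95th percentile of 81 probe sets for olfactory, vomeronasal and bitter taste receptors on the same array. These are genes of sensory cells and serve here as a level of signal without transcript. This on-level was 87.3 and 136 in WT and 78.8 and 132 in Ezh2cKO for replicates 1 and 2.

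Ezh2 itself had a signal of 3336 and 3603 in WT and of 661 and 1308 in Ezh2cKO, so the genotypes did not overlap (log2 difference -1.88, SE 0.32, limma's adjusted p = 1 over all probe sets, rounded). The median signal over all probe sets was 87.4 to 91.6 on the arrays numbered 1 and 137 to 148 on those numbered 2. All 10 basal keratinocyte markers were on in both WT arrays. All 11 measured dermal fibroblast markers and all 9 endothelial markers were too, so the sorted fraction was not free of signal from other skin cells. The endothelial markers summed to 4619 in Ezh2cKO replicate 1 and to between 8794 and 11227 on the other 3 arrays. For these, fewer cells and less RNA per cell cannot be told apart in bulk RNA. That array also stood apart in markers of embryo sex. Xist had 86.9 against 8669 to 11333. The Y-linked genes were highest there: Eif2s3y had 860.8 against 222.3 to 534.7, Kdm5d 493.9 against 118.3 to 286.6, and Uty 353.8 against 133.7 to 286.4. On the other 3 arrays Xist and these Y-linked genes were all above the on-level, so each held transcripts that mark both sexes. Whether embryos were pooled was not tested. The sex make-up of the samples thus differed, also between genotypes within replicate 1. Its part in the members' values was not tested.

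Most members were not on. In WT, 14 of 53 genes (26.4%) had a probe set on in both arrays, against 60.4% of all 18193 genes, and 16 (30.2%) did so in Ezh2cKO, against 61.4%. By probe set, 23 of 98 (23.5%) were on in both WT arrays, against 46.3% of all, and 25 (25.5%) in both Ezh2cKO arrays, against 48%. The 14 were Irx1, Irx2, Irx3, Irx5, Dlx3, Msx1, Meis1, Meis2, Pbx3, Prrx1, Shox2, Pax3, Six3 and Six5. Dlx5, Msx2 and Lhx3 were on in both Ezh2cKO arrays but in only 1 WT array, and Six3 was on in both WT arrays but in 1 Ezh2cKO array. The replicate 2 WT values of Dlx5, Msx2 and Lhx3 lay between 102.2 and 134.9, below that array's on-level of 136. For 30 members no probe set was on in any array. At the 99th percentile of the receptors 11 genes were on in WT, with Meis1, Msx1 and Six3 lost. At the 90th percentile 19 were. Probe sets differ in how brightly they report a transcript, so signals are compared between arrays and not between genes.

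**Figure D1:**
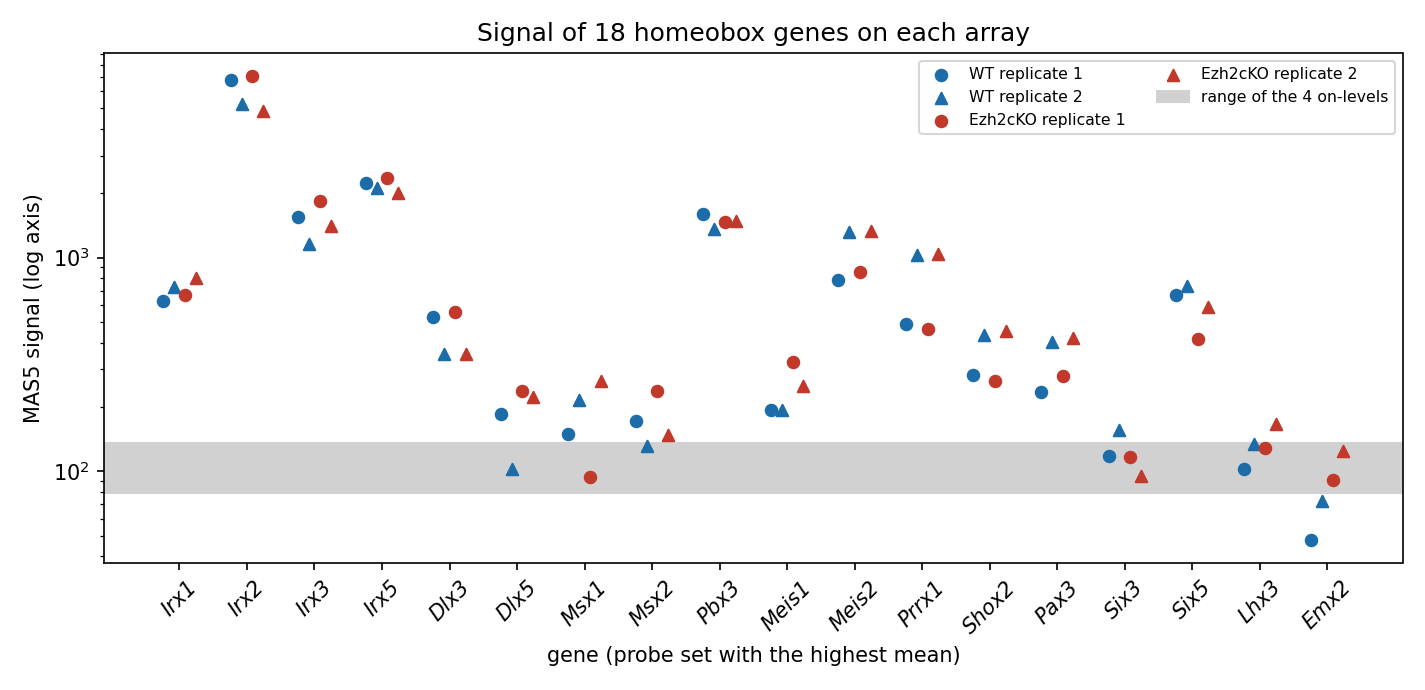
MAS5 signal (log axis) of the 18 members that were on in both arrays of a genotype or moved, each by its probe set with the highest mean: blue for WT, red for Ezh2cKO, circles for replicate 1 and triangles for replicate 2. The grey band spans the on-levels of the 4 arrays (78.8 to 136). For Prrx1, Shox2 and Pax3 the symbols split by shape rather than by colour, and Emx2 lies within or below the band on all 4 arrays.

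Of the 98 probe sets, 0 passed limma's adjusted threshold of 0.05, as did 0% of all probe sets, Ezh2's included. At an unadjusted p under 0.05 the count was also 0 of 98 (lowest 0.056), beside 0.731% of all probe sets higher and 0.389% lower. The median log2 difference of the member probe sets was 0.03, beside 0.01 over all probe sets. A probe set was counted as moved where Ezh2cKO differed from WT at least 1.5-fold in the same direction within both replicate numbers, on the log2(signal + 16) scale, which understates changes of dim genes and on which all folds within a replicate number are given. Of the 98, 1 moved up, that of Emx2, and 0 moved down, beside 1.18% and 0.562% of all probe sets. Of the 23 member probe sets on in both WT arrays, 0 moved up and 0 down, beside 0.297% and 0.0719% of all such probe sets. Within a number there is 1 array per genotype and no test. Within replicate 1, 7 member probe sets were at least 1.5-fold higher and 7 lower, and within replicate 2, 8 were higher and 7 lower. The shares over all probe sets were 6.36% and 7.89% within replicate 1, and 8.03% and 4.25% within replicate 2. The members' shares of 7.14%, 7.14% and 8.16% lay near the first 3 of these, and their share lower within replicate 2, 7.14%, was above the last. Emx2 was the only probe set counted in the same direction in both. Over 14 markers of stress and tissue dissociation the median difference, Ezh2cKO minus WT, was log2 0.66 within replicate 1, where 1 of the 14 was lower, and 0.57 within replicate 2, and their part in the members' values was not tested.

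**Figure D2:**
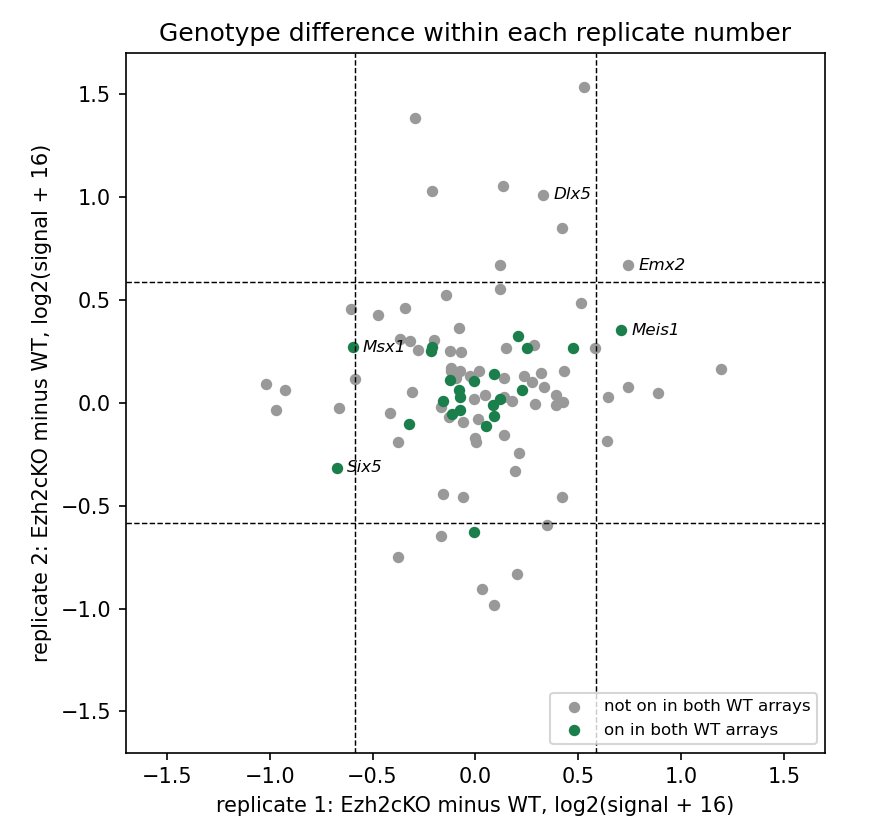
Genotype difference (Ezh2cKO minus WT, log2(signal + 16)) of each of the 98 member probe sets within replicate 1 (x axis) and within replicate 2 (y axis), in green where on in both WT arrays. Dashed lines mark 1.5-fold. Only Emx2 lies beyond the lines in the same direction on both axes, and 48 of the 98 points have opposite signs on the axes.

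The Iroquois genes, regulators of regional identity that lie in clusters of neighbouring genes, were on in both genotypes, all 4 of them. Irx1 had signals of 625.5 and 730.9 in WT and 666.8 and 806.5 in Ezh2cKO. Its neighbour Irx2 had 6811 and 5213 in WT and 7064 and 4828 in Ezh2cKO. The third gene of that chromosome 13 cluster, Irx4, which was not a listed member, had 3486 and 2376 in WT and 3274 and 2264 in Ezh2cKO. In each of the 3 genes the ranges of the genotypes overlapped.

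In the chromosome 8 cluster, Irx3 had 1543 and 1162 in WT and 1839 and 1399 in Ezh2cKO, and was 1.19-fold and 1.20-fold higher within replicates 1 and 2. This was the most even difference in the cluster, but the ranges of the genotypes overlapped (log2 0.26, SE 0.23, 95% interval -0.30 to 0.82). Irx5 had 2224 and 2108 in WT and 2364 and 2017 in Ezh2cKO, with a narrow interval of -0.40 to 0.42 around a log2 difference of 0.01. Their neighbour Irx6, also not a listed member, was not on, with 54.3 and 55.1 in WT and 39.3 and 86.7 in Ezh2cKO. No protein-coding gene lies between Irx3, Irx5 and Irx6 in the RefSeq order, so an on pair sat directly beside a gene not called on. Irx6 was read by 1 probe set, so little transcript and a dim probe set cannot be told apart.

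Promoter sequence of RefSeq (build GRCm38.p6, 250 bases upstream of the most upstream start) was matched for 38 of the 53 measured members. Promoters were CpG-rich, here at least 50% G+C and an observed over expected CpG of at least 0.6, for 23 of the 38 (60.5%), beside 41.8% of protein-coding genes of the table. The share was 44.4% of 9 members on in WT and 65.5% of 29 that were not. The TAATTA sequence, a core bound by many homeodomains and the same on both strands, was found in 3 of the 38 windows (7.89%), those of Msx2, Otx2 and Prrx1, beside 4.45% of protein-coding genes. A match is a description of these letters and not of a binding site. Shown are Irx2 and Irx3, on in every array, Emx2, the member that moved, and Prrx1, which differed between replicate numbers, each 5′ to 3′ on the strand of its gene with CG dinucleotides in capitals. The windows are chr13:72628570-72628819 on the + strand, chr8:91801655-91801904 on the - strand, chr19:59458440-59458689 on the + strand and chr1:163313651-163313900 on the - strand, in that order.
Irx2: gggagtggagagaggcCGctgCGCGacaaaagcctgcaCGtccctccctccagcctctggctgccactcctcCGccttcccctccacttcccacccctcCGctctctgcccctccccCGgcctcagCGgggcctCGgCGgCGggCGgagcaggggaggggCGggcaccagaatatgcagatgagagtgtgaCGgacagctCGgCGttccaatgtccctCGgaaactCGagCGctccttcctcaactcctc
Irx3: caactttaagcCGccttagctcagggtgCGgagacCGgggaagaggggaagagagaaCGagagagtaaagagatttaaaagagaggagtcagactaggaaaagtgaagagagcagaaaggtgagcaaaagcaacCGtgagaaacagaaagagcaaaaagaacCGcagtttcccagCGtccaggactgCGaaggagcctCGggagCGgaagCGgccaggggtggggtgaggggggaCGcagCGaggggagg
Emx2: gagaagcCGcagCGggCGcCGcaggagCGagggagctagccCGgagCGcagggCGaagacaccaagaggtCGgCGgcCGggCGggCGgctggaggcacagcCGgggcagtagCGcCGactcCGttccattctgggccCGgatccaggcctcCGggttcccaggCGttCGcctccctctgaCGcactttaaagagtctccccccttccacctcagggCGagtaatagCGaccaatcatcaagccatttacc
Prrx1: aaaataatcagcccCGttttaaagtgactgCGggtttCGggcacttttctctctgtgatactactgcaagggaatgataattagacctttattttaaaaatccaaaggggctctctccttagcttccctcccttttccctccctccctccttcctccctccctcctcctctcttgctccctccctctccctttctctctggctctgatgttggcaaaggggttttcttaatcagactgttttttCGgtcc
The window of Emx2 held 24 CG dinucleotides, that of Irx2 held 19, that of Irx3 held 13 and that of Prrx1 held 4, beside a median of 10.0 over protein-coding genes. The window of Emx2, which was not on in WT, thus held more CG than those of both Irx genes.

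Among the Dlx and Msx genes, Dlx3, a regulator of keratinocyte differentiation, was on in all arrays. Its probe set with the highest mean had 525.3 and 355.1 in WT and 558 and 352.2 in Ezh2cKO. Its other probe set had 250.3 and 274.9 in WT and 197.2 and 255 in Ezh2cKO. Within replicate numbers the first probe set differed by log2 0.08 and -0.01, and the interval of the genotype difference was -0.78 to 0.85. Dlx4, its neighbour on chromosome 11 and not a listed member, had 243.4 and 328.9 in WT and 391.9 and 325.3 in Ezh2cKO.

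Dlx5, best known from bone and craniofacial development, had 185.6 and 102.2 in WT and 237.1 and 222.2 in Ezh2cKO. Both Ezh2cKO arrays lay above both WT arrays, by 1.26-fold within replicate 1 and 2.01-fold within replicate 2, though limma did not separate the genotypes (log2 0.67, SE 0.43, 95% interval -0.37 to 1.71, adjusted p = 1, rounded). Its linked gene Dlx6 was not on, with signals of 3.24 to 9.10. Dlx1 had 2.86 to 8.06. Dlx2 had 87.9 to 96.1, above the on-level on both replicate 1 arrays and below it on both replicate 2 arrays.

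Msx1, a target of BMP signalling in mesenchyme and hair, had 149.7 and 215.8 in WT and 93.6 and 263.4 in Ezh2cKO. It was lower in Ezh2cKO within replicate 1 (log2 -0.60) and higher within replicate 2 (0.27), so the genotype difference had no settled sign (interval -1.52 to 1.20). Msx2, its paralog, had 171.6 and 130.9 in WT and 236.9 and 147.7 in Ezh2cKO, with overlapping genotypes.

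Meis and Pbx proteins are homeodomain cofactors that bind DNA together with Hox proteins, and all 3 members were on. Pbx3 had 1595 and 1366 in WT and 1461 and 1479 in Ezh2cKO, and the Ezh2cKO values fell between the WT values. The interval of its log2 difference was -0.43 to 0.42. Meis2 had 784.4 and 1312 in WT and 852.4 and 1330 in Ezh2cKO, which overlapped too.

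Meis1 had 193 and 193.3 in WT and 325.3 and 251.2 in Ezh2cKO by its probe set with the highest mean, so both Ezh2cKO arrays lay above both WT arrays, 1.63-fold within replicate 1 and 1.28-fold within replicate 2. The difference did not pass limma's threshold (log2 0.53, SE 0.33, 95% interval -0.27 to 1.33, adjusted p = 1, rounded). A second Meis1 probe set had 65.1 and 151.5 in WT and 75.7 and 152.6 in Ezh2cKO. The third had 72.4 and 96.0 in WT and 43.0 and 105.5 in Ezh2cKO. Neither of these separated the genotypes. A Meis2 probe set other than the first, with 448.6 and 602.1 in WT and 629.8 and 727.9 in Ezh2cKO, was also above in both Ezh2cKO arrays.

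Paired-like genes mark mesenchyme, head and limb, and of the 7 members Prrx1 and Shox2 were on. Prrx1, a mesenchymal regulator, had 491.1 and 1024 in WT and 465.6 and 1044 in Ezh2cKO. Shox2, a limb and heart regulator, had 281.3 and 432.7 in WT and 265.1 and 452.5 in Ezh2cKO. In both genes the replicate 2 arrays were high and the replicate 1 arrays low in either genotype, and the genotypes overlapped. Pitx1, Prrx2, Alx4, Otx1 and Otx2 had no probe set on in both arrays of a genotype, with signals of at most 122 among paired-like probe sets that were not on.

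Of the Pax genes, regulators of eye, muscle, kidney, thymus and neural crest, Pax3 was on. It had 236 and 402.1 in WT and 278.7 and 420 in Ezh2cKO, with overlapping genotypes, and its second on probe set had 133.1 and 168.5 in WT and 125.6 and 164.2 in Ezh2cKO. Among the melanocyte markers listed beside it, 4 of 10 were on in both WT arrays, and the pigment genes Tyr, Tyrp1 and Mlana were on in no array. The melanocyte markers summed to 3449 and 3590 in WT and 2608 and 3531 in Ezh2cKO. Their part in the Pax3 signal was not tested. Pax1, Pax6, Pax7, Pax8 and Pax9 were not on. One Pax9 probe set had 11.8 and 10.5 in WT and 24.1 and 61.0 in Ezh2cKO, with the lowest p of all 98 (log2 1.03, SE 0.44, limma's adjusted p = 1, rounded), but all 4 values lay below the on-level.

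Among the sine oculis homeobox genes, Six5, known from its place beside the myotonic dystrophy gene, had 671.3 and 733.5 in WT and 415.1 and 586.1 in Ezh2cKO. The Ezh2cKO values were the lower pair without overlap, at 0.627 times the WT level within replicate 1 and 0.803 times within replicate 2, but the difference did not pass limma's threshold (log2 -0.49, SE 0.25, 95% interval -1.10 to 0.12, adjusted p = 1, rounded). Six3, a forebrain and eye regulator, had 117.5 and 156.5 in WT and 117 and 95.5 in Ezh2cKO by its only on probe set, so the genotypes differed within replicate 2 alone. Six2, a kidney progenitor regulator, had 84.8 and 107.3 in WT and 66.2 and 306 in Ezh2cKO, with the high value in Ezh2cKO replicate 2 only. Six4 was not on.

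The LIM homeodomain genes, which specify neurons and limb, were mostly not on. Lhx3 had 102.5 and 134.9 in WT and 128.3 and 167.1 in Ezh2cKO, 1.22-fold and 1.21-fold higher within the numbers, while its second probe set had 56.3 and 88.9 in WT and 67.3 and 42.9 in Ezh2cKO. Isl1, also a marker of Merkel cells, had 13.8 to 61.3 over its 2 probe sets in WT and 6.93 to 40.9 in Ezh2cKO. Of 7 Merkel cell markers, 4 were on in both WT arrays (Krt8, Krt18, Sox2 and Piezo2), and the defining regulator Atoh1 was not, with 101.1 and 77.3 in WT and 133.6 and 85.6 in Ezh2cKO. The 7 markers summed to 793.8 and 965.6 in WT and 921.3 and 1024 in Ezh2cKO.

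Emx2, a regulator of forebrain and urogenital development, was the only member that moved. It had 47.9 and 72.4 in WT and 90.8 and 124.5 in Ezh2cKO, and both Ezh2cKO arrays lay above both WT arrays, 1.67-fold within replicate 1 and 1.59-fold within replicate 2. The limma difference was log2 0.70 (SE 0.51, 95% interval -0.54 to 1.95, adjusted p = 1, rounded). Of the 4 values only that of Ezh2cKO replicate 1 exceeded its array's on-level of 78.8. With a pseudocount of 64 in place of 16 Emx2 did not reach 1.5-fold in both numbers, and 0 of 98 probe sets moved.

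The remaining classes had no gene on in WT. En1, En2, Nkx2-2, Nkx2-5, Nkx6-1, Barx1 and Barx2, regulators of brain, heart, pancreas and stomach, had signals from 5.36 to at most 124.5, Emx2 included. Evx1, Gbx2, Cdx1 and Cdx2, which pattern the posterior body and gut, had 1.72 to 28.4. Pou3f3, Pou4f1, Prox1 and Onecut2 had 1.28 to 118.8. Prox1, the regulator of lymphatic endothelium, was on in no array, although 4 of 4 measured lymphatic markers were on in both WT arrays.

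**Figure D3:**
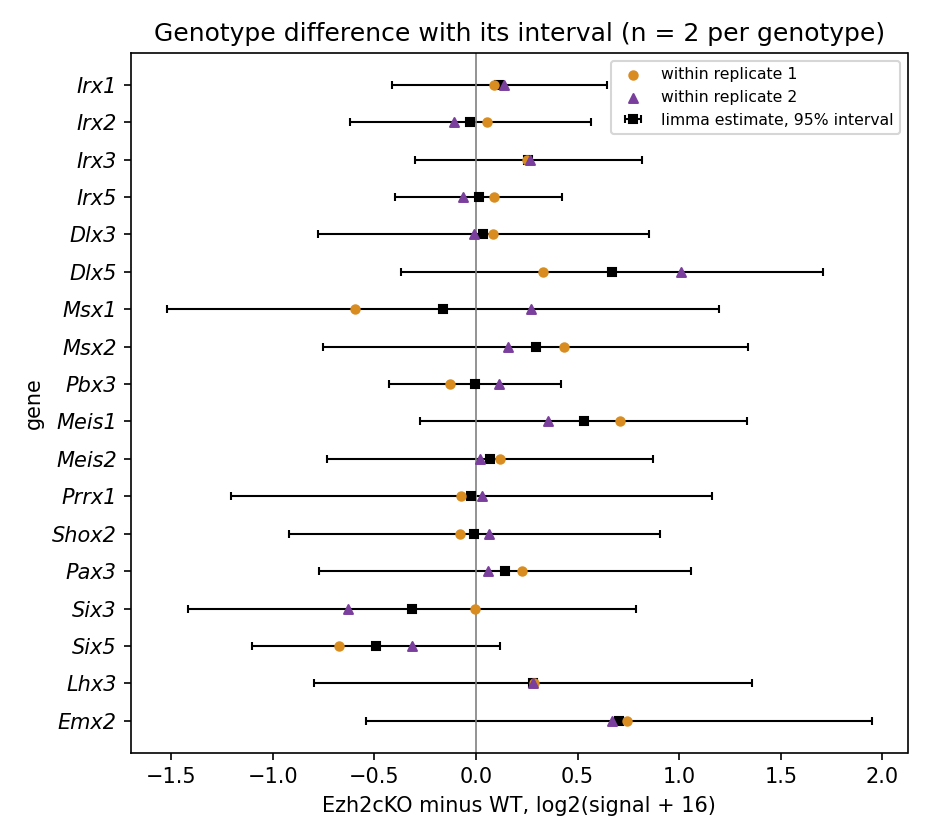
Genotype difference (Ezh2cKO minus WT, log2(signal + 16)) of the 18 members by their probe set with the highest mean: black squares are limma estimates with 95% intervals (n = 2 per genotype), orange circles the value within replicate 1 and purple triangles that within replicate 2. Every interval includes 0. The intervals of Irx5 and Pbx3 stay within 0.43 of 0 on the log2 scale, and that of Emx2 reaches 1.95.

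The intervals, from the fit without a block, set how much change that fit could have missed. A difference between replicate numbers that both genotypes share counts as spread in this fit and widens them. The brightest Prrx1 probe set differed by log2 -0.07 and 0.03 within replicates 1 and 2, but its interval was -1.21 to 1.16. Among the 23 member probe sets on in both WT arrays, the half-width of the 95% interval had a median of 0.82 on the log2 scale (range 0.41 to 1.74), and for 10 of the 23 the interval lay wholly within a 2-fold change either way on that scale. For the rest of these a 2-fold change in at least 1 direction lay inside the interval. Among the 75 that were not on the median half-width was 1.05, but at such signals the added 16 narrows the interval, so a 2-fold change of signal was not excluded for them.

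Both Ezh2cKO arrays lay above both WT arrays for 18 of the 98 probe sets (18.4%), from 16 genes, and below for 7 (7.14%), beside 9.11% and 8.23% of all probe sets. Of these 18, 13 were above the on-level on no array and 11 had signals under 50 on every array, such as Barx2 with 15.0 and 9.25 in WT and 25.4 and 29.4 in Ezh2cKO, and Pou3f3 with 6.61 and 8.37 in WT and 35.7 and 11.3 in Ezh2cKO. Among probe sets on in both WT arrays the count was 2 of 23 above (8.70%, Meis1 and Meis2) and 2 below (8.70%, Six3 and Six5), beside 7.19% and 8.09% of all such probe sets. Among probe sets not on in WT the count above was 16 of 75 (21.3%), beside 10.8%. Of 9 suprabasal markers, 4 were above in both Ezh2cKO arrays and 0 below, though none passed limma's adjusted threshold. Flg had 23.8 and 29.4 in WT and 169.2 and 183.8 in Ezh2cKO, Lor had 1753 and 2498 in WT and 5629 and 3423 in Ezh2cKO, and Ivl and Dsc1 were the others. Flg and Ivl were not on in both WT arrays. Krt1, Krt10, Krtdap, Sbsn and Dsg1a overlapped between the genotypes. The 9 summed to 53099 and 45525 in WT and 57849 and 51200 in Ezh2cKO, and their part in the members' values was not tested. The members' shares depended on scaling: after quantile normalization 12 of 98 (12.2%) were above, beside 10.1% of all probe sets, and after scaling to a common median 14 (14.3%), beside 8.24%. Below were 9 (9.18%) after either scaling, beside 11% and 8.75%. Leaving out 1 array loosens the rule, so no share could fall. The shares above, of members and of all probe sets, were then 24.5% beside 20.6% without WT replicate 1 and 42.9% beside 33.2% without WT replicate 2. They were 58.2% beside 43.7% without Ezh2cKO replicate 1 and 27.6% beside 23.9% without Ezh2cKO replicate 2. The shares below, in the same order, were 26.5% beside 29.6%, 13.3% beside 20.1%, 14.3% beside 22.6% and 43.9% beside 41%.

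Several members that were on differed between replicate numbers in the same way in both genotypes. Of the 23 probe sets on in both WT arrays, 16 were higher in replicate 2 than in replicate 1 within both genotypes (69.6%), beside 40.9% of all probe sets on in WT, and 4 were lower in both. At 1.5-fold within both genotypes 7 of 23 were higher (30.4%), beside 10.2%, and these were probe sets of Prrx1, Shox2 and Meis2. Over all 98 member probe sets the count was 13 higher (13.3%), beside 16.3%, and 0 lower, beside 1.77%. For Prrx1, 5 of 6 probe sets were on, and they were 1.60-fold to 2.71-fold higher in replicate 2 in WT and 1.91-fold to 3.82-fold in Ezh2cKO. The other probe set was far below the on-level on every array. These are ratios of signals. Irx2 was 0.766 times its replicate 1 level in WT and 0.684 times in Ezh2cKO, and Irx3 0.753 and 0.761 times, whereas Irx1 was 1.17-fold and 1.21-fold higher in replicate 2. The probe sets of Dlx3 disagreed: that with the highest mean was 0.676 and 0.631 times its replicate 1 level, and the other was 1.10-fold and 1.29-fold higher.

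Markers of skin layers, vessels and stress also differed between replicate numbers. Of 11 dermal fibroblast markers, 8 were higher in replicate 2 within both genotypes and 2 lower, with medians of log2 0.37 in WT and 0.52 in Ezh2cKO. Twist1, a mesenchymal regulator with the largest difference of the 11 in WT, had 276.6 and 690.1 in WT and 293 and 781.2 in Ezh2cKO. The 2 lower ones were Dcn and Postn. Dcn had 15428.3 and 13275.5 in WT and 17210 and 15027.3 in Ezh2cKO. Postn had 14364.5 and 13889.9 in WT and 16736.2 and 14334.3 in Ezh2cKO. Of the 10 basal markers, 9 were lower in replicate 2 within both genotypes, with medians of -0.22 and -0.16. Of 9 hair placode markers, 8 were lower in replicate 2 in both, with medians over the 9 of -0.34 in WT and -0.66 in Ezh2cKO. The summed fibroblast signal was 64665 to 65870 on the replicate 1 arrays and 73417 to 77088 on the replicate 2 arrays, and the summed basal signal was 90282 to 95640 and 83102 to 85603. All 9 endothelial markers were higher in replicate 2 in both genotypes, with medians of 0.29 in WT and 1.38 in Ezh2cKO. Of the 14 stress and dissociation markers 10 were higher in both, with medians of 1.21 and 0.85. The part of these cell types and of stress in the differences of Prrx1, Shox2, Meis2, Irx2 and Irx3 between replicate numbers was not tested.

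**Figure D4:**
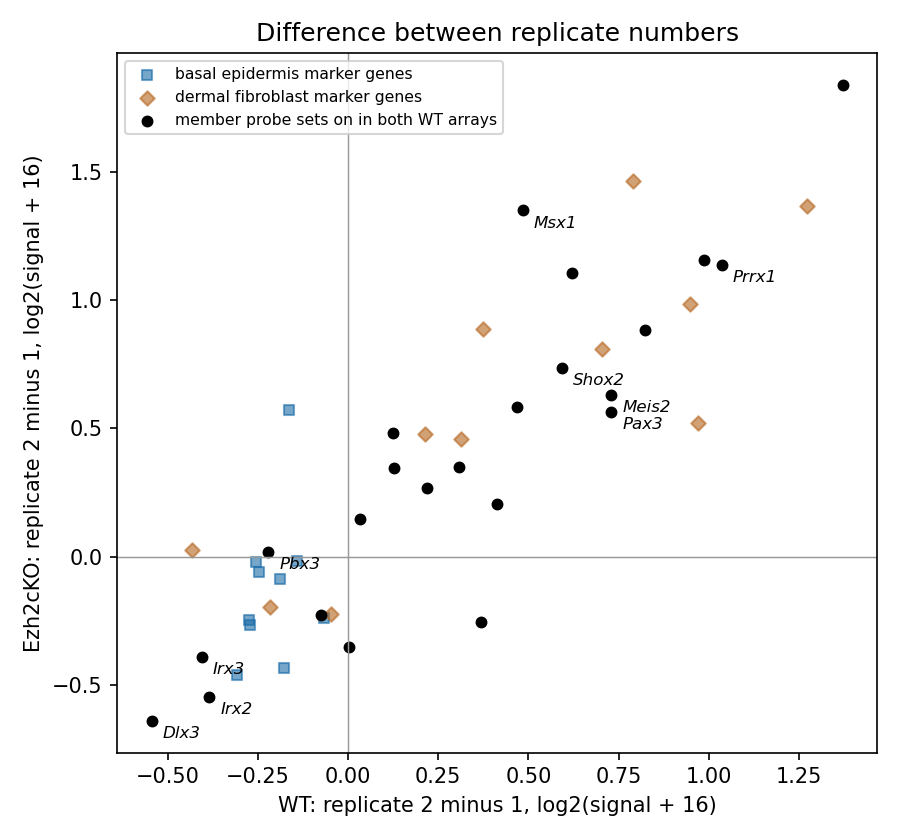
Difference between replicate 2 and replicate 1, log2(signal + 16), within WT (x axis) and within Ezh2cKO (y axis), for the 23 member probe sets on in both WT arrays (black), 11 dermal fibroblast markers (brown diamonds) and 10 basal markers (blue squares). Prrx1, Shox2, Meis2 and Pax3 lie at the upper right with most of the fibroblast markers. Irx2, Irx3 and 1 of the 2 Dlx3 probe sets lie at the lower left, and the other Dlx3 probe set lies above 0 on both axes.

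Of 114 other homeobox genes outside the Hox clusters, 94 were measured, by 166 probe sets. In WT 35 of the 94 (37.2%) were on, and 35 were on in Ezh2cKO. None of the 166 passed limma's adjusted threshold, 2 had an unadjusted p under 0.05, both higher, and the same 2, of Mkx and Vax1, moved up (1.20%). Neither was on in both WT arrays. Among those that were on, the largest moderated t values were those of Lmx1b, a LIM gene of limb and kidney, Zfhx4, Cux2 and Hopx. Lmx1b had 517.2 and 472.9 in WT and 634.8 and 757.7 in Ezh2cKO (log2 0.47, SE 0.22, 95% interval -0.06 to 1.01). Zfhx4 had 150.4 and 254.1 in WT and 344.2 and 325.8 in Ezh2cKO, Cux2 had 446.1 and 540.9 in WT and 232.8 and 406.1 in Ezh2cKO, and Hopx had 720.7 and 691.8 in WT and 967.5 and 855.1 in Ezh2cKO. By these probe sets, the brightest of each of the 4 genes, the genotypes did not overlap, but each had an adjusted p of 1, rounded, in limma. Another Cux2 probe set, not on in both WT arrays, was at least 1.5-fold higher in Ezh2cKO within replicate 1. Of probe sets on in both WT arrays, 7 of 62 of these other genes were above WT in both Ezh2cKO arrays (11.3%) and 4 below (6.45%).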

How the data were processed

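The deposited values are linear signal intensities, made by the authors with MAS5 (per the submitters' processing notes, no version given); the mean trimmed by 2% at each end was 500.0 on every array, and this scaling was kept. Arrays were grouped and numbered from their titles. Of 45101 probe sets, 64 controls were left out. Names came from the platform annotation, with 34945 probe sets having 1 symbol, 932 several and 9160 none; symbols were updated by gene identifier (34741 matched, RefSeq GRCm38.p6, used only for names, neighbours and promoters).

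Values were transformed as log2(signal + 16) and limma 3.58.1 (R 4.3.3) compared the genotypes without a block or filter, on 2 residual degrees of freedom. Its eBayes step used a trend with mean intensity, with Benjamini-Hochberg adjustment over all 45037 probe sets. The fit was also run on simulated data with a spread set below that of these arrays, independent arrays and changes in bright probe sets only. That run cannot show how the fit performs for these members. Upper 60% filtering, as an alternative, would keep 39 member probe sets of 25 genes. Members and lists were chosen with earlier results of these data known. Per-array values are given for members on in both arrays of a genotype or moved, others by range. Pax9, Six2 and other members below the on-level, Barx2, Pou3f3, Irx4, Irx6, Dlx4, Mkx, Vax1, Twist1, Dcn and Postn were named after their values were seen. The number of arrays limits precision. Same-numbered arrays deviated together (r = 0.61 over all probe sets, from 2 numbers), which the labels do not explain. Alternatives were other pseudocounts, filters, scalings, thresholds, a replicate block, no trend, means of probe sets and leaving out each array.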

Additional observations from a re-analysis of the deposited data

How the results depend on the processing

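The count of member probe sets past limma's adjusted p of 0.05 was 0 under every alternative run, including the replicate block (0), an adjusted p of 0.1 and leaving out each array. Since 0 of all 45037 probe sets passed in the analysis reported, Ezh2's included, this says nothing about stability. A fit without 1 array takes its spread from the other genotype and assumes that the lone array varies likewise. In this balanced design the block cannot change a log2 difference, so the 18 named members kept theirs (Emx2 0.70, Six5 -0.49, Dlx5 0.67 with it). The count of probe sets that moved, 1 in the analysis reported, was 4 with a pseudocount of 1, 0 with 64, 0 at 2-fold, 7 at a fold limit below 1.5, 25 when only separation of the arrays was asked, and 0 among probe sets on in at least 1 array of each genotype. With 4 arrays such counts rest on few probe sets. Genes on in WT numbered 11 to 20 over the alternatives, with 20 without WT replicate 2. Probe sets with the Ezh2cKO arrays above the WT arrays, a count and alternatives chosen after seeing the data, numbered 24 to 57 when 1 array was left out, against 18. Those with the Ezh2cKO arrays below numbered 13 to 43, against 7. Leaving out an array loosens the rule, so neither count could fall. Over the log2 differences, 215 alternatives kept direction and side of the threshold and 24 reversed. The block, the filters and the fit without a trend leave a log2 difference unchanged, so their part of the 215 was fixed in advance. The count of 215 is therefore no measure of stability. Averaging all probe sets per gene reversed Dlx3 (-0.087), Lhx3 (-0.016) and Pbx3 (0.022), and a common median reversed Irx5 (-0.010). Leaving out 1 array gave log2 differences of -0.28 to 0.36 for Dlx3, -0.02 to 0.25 for Irx1, -0.30 to 0.24 for Irx2, -0.10 to 0.13 for Irx5, -0.30 to 0.43 for Meis2, -0.84 to 0.51 for Msx1, -0.02 to 0.61 for Msx2, -0.22 to 0.51 for Pax3, -0.12 to 0.10 for Pbx3, -0.59 to 0.55 for Prrx1 and -0.38 to 0.36 for Shox2. Without a change of sign it gave 0.28 to 1.05 for Dlx5, 0.47 to 0.94 for Emx2, 0.06 to 0.46 for Irx3, 0.11 to 0.46 for Lhx3, 0.35 to 0.71 for Meis1, -0.50 to -0.13 for Six3 and -0.73 to -0.25 for Six5. Averaging its probe sets gave 0.13 for Meis1. The adjusted p of Ezh2 was 0.000444 without WT replicate 1 and 0.000205 without WT replicate 2; the cause was not tested. For members near the on-level, signal over background limits what could be seen.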
